A study of Mus musculus with 32 samples.

Results

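FAPs (fibro-adipogenic progenitors) are mesenchymal cells that lie between the fibres of skeletal muscle. Their RNA was compared at day 3 between injured muscle that carried a transplant of brown adipose tissue (BAT) and injured muscle without one. The comparison rests on 8 of the 32 libraries of the study, 4 with BAT and 4 controls, chosen by their labels: FAP, day 3, BAT or control. The other libraries are FAPs at day 7 and satellite cells, the muscle stem cells, at both days. The question, as far as the labels state it, was how BAT affects muscle regeneration in the supraspinatus, a muscle of the rotator cuff. In the BAT group the supraspinatus had been injured with cardiotoxin, a venom peptide that lyses fibres, and had then received interscapular BAT from 3-week-old donors. In the control group the muscle had the cardiotoxin injury alone. All host mice are labelled wild-type C57BL/6J males, 12 weeks old, and the BAT and the control muscle of a pair came from the same mouse. No sham operation and no other graft was analysed here, so the transplanted tissue and the operation cannot be told apart. FAPs were sorted as cells without CD45, a leukocyte protein, without CD31, an endothelial protein, and without integrin alpha 7, a satellite cell protein, that carried Sca1. Mouse codes in the labels pair replicates 1, 2 and 3 (mice 2b, 3a and 3b). The BAT and the control library with no code were taken as a pair, replicate 4, which is an inference.

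FAPs proliferate within days of a muscle injury and secrete cytokines, growth factors and matrix proteins. They feed satellite cells and recruit leukocytes, and when they persist they give rise to fibrosis and fat within muscle. They respond to interleukin 1 and tumour necrosis factor, which act through NF-kB, a transcription factor that turns on chemokine and acute-phase genes. Ligands of the epidermal growth factor receptor, such as epiregulin and amphiregulin, and cytokines of the interleukin 6 family, such as leukaemia inhibitory factor, are among the signals that mesenchymal cells send to muscle cells. Brown fat burns fatty acids for heat through the uncoupling protein Ucp1 and secretes factors that reach other tissues.

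The libraries carried the markers of the gate. Total counts were 27334329 to 32501699 per library with BAT and 22673218 to 26908293 in control, and the BAT library was the deeper of its pair in 4 of 4 mice. Levels are given in CPM, counts scaled to a library total of 1000000, and 3 counts, the floor used for a gene not detected, are worth 0.0923 to 0.132 CPM. This limit covers counting error only. Pdgfra, a receptor of platelet-derived growth factors by which FAPs are told from other muscle cells, was at 325, 308, 269 and 406 CPM in BAT replicates 1 to 4 and at 326, 272, 263 and 436 CPM in control replicates 1 to 4. Its groups overlapped (log2 fold change BAT over control 0.06 ± 0.08, SE; edgeR adjusted p = 0.974). Ly6a, which encodes Sca1, was at 694, 804, 532 and 804 CPM with BAT and 897, 823, 652 and 933 CPM in control, lower with BAT in 4 of 4 mice but not past the test (-0.20 ± 0.09, adjusted p = 0.957). Of the brown fat and fat cell markers, Ucp1 averaged 0.118 ± 0.171 CPM with BAT and 0.0652 ± 0.107 CPM in control, and the adipokine gene Adipoq 0.104 ± 0.114 CPM with BAT and 0.0661 ± 0.109 CPM in control (SD, n = 4 each). The brown fat gene Cidea and the lipid droplet gene Plin1 averaged at most 0.066 CPM in either group.

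A single library stood apart. Added over 28 genes of macrophages and monocytes, the level was 5946, 81.7, 133 and 22.1 CPM in BAT replicates 1 to 4, against 24.3, 72, 77.0 and 18.6 CPM in control replicates 1 to 4. BAT replicate 1, from mouse 2b, was thus far above the other 7 libraries. The lysozyme gene Lyz2 was at 2530.3, 25.5, 54.6 and 3.60 CPM with BAT and 5.80, 26.2, 32.2 and 4.40 CPM in control, and Ptprc, which encodes the CD45 that the sort excluded, at 34.0, 0.439, 0.800 and 0.277 CPM with BAT and 0, 0.409, 0.397 and 0 CPM in control. None of the 28 genes was at 0 in all 8 libraries. In that library the sums of dendritic cell genes (867 CPM), erythroid genes (409 CPM) and mature myofibre genes (170 CPM) were high too, against at most 20.03, 32.6 and 16.95 CPM in the other 3 libraries with BAT. Myod1, a regulator of myogenic cells, was at 34.0 CPM there and at most 0.109 CPM in those 3. The sum of 28 FAP identity genes was the lowest of the 8 libraries, at 14261 CPM. Within mice, the macrophage sum of BAT minus control averaged 1498 ± 2949 CPM (SD, n = 4 pairs, above 0 in 4 of 4; exact sign-flip permutation test, two-sided, p = 0.125, the smallest that 4 pairs can give). Without replicate 1 it averaged 23.0 ± 28.7 CPM (n = 3 pairs, above 0 in 3 of 3; exact sign-flip permutation test p = 0.25, the smallest that 3 pairs can give). Over 6 defining markers (Lyz2, Cd68, Adgre1, Csf1r, C1qa and Tyrobp) the difference was above 0 in 2 of 4 pairs. Replicate 2 had 33.1 CPM of them with BAT and 34.0 CPM in control, and replicate 4 had 6.71 and 7.28 CPM. More cells of a kind and more RNA per cell cannot be told apart in sorted bulk RNA. The 22 macrophage genes that could be tested were all fitted above 0 with 4 mice (median log2 fold change 2.17), and 16 of them without replicate 1 (median 0.35). Values without replicate 1 are therefore given beside the calls and list medians that moved with it.

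**Figure D1:**
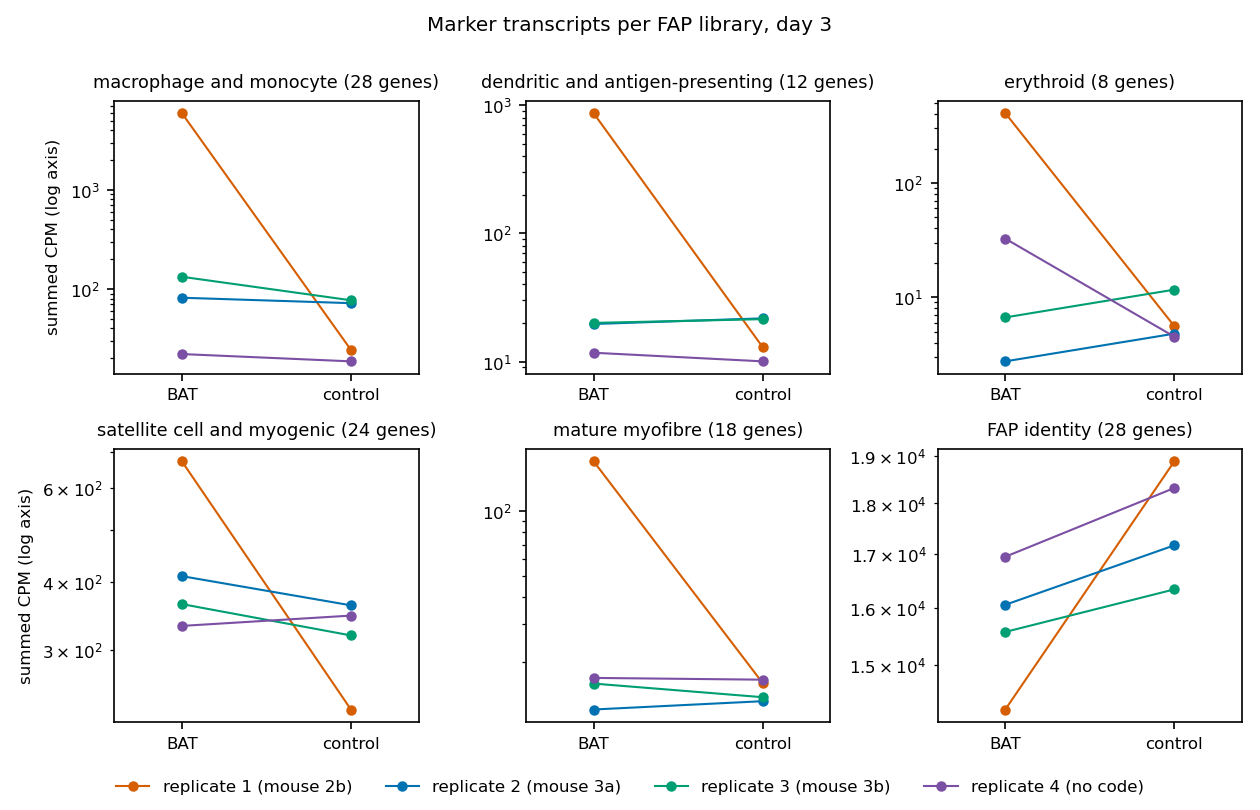
Summed CPM (log axis) of 6 marker lists in each day 3 FAP library, BAT on the left and control on the right of each panel, with a line for each mouse. BAT replicate 1 reaches 5946 CPM of macrophage transcripts, where BAT replicates 2 to 4 hold 22.1 to 133 CPM, and has the lowest sum of FAP identity genes.

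3 genes rose with BAT in FAPs at day 3, and each of them encodes a secreted signal or an inflammatory protein. They were Saa3, an acute-phase apolipoprotein made at sites of inflammation, Cxcl5, a chemokine that attracts neutrophils, and Ereg, the growth factor epiregulin. Saa3 was at 31.5, 122, 54.4 and 82.2 CPM in BAT replicates 1 to 4 and at 7.69, 30.2, 8.29 and 13.8 CPM in control replicates 1 to 4. Every BAT library was above every control library, as for 0.727% of all genes tested (the reverse held for 1.35%), and the highest value of each group came from the same mouse, 3a. The log2 fold change was 2.36 ± 0.15 (SE; edgeR quasi-likelihood test with the mouse as a block, Benjamini-Hochberg adjusted p = 0.00581). Cxcl5 was at 614, 1846, 1178 and 1092 CPM with BAT and 295, 793, 526 and 510.4 CPM in control. The groups overlapped, since the control of mouse 3a lay above the BAT library of mouse 2b, but BAT exceeded control in 4 of 4 mice (1.17 ± 0.08, adjusted p = 0.00591). Ereg was at 36.2, 72.5, 55.8 and 42.4 CPM with BAT and 9.55, 29.4, 19.8 and 11.8 CPM in control, with no overlap (1.67 ± 0.14, adjusted p = 0.0204). These 3 genes were 0.0188% of the 15948 genes tested, and 0 genes (0%) fell. At an unadjusted p under 0.05 there were 409 genes higher (2.56%) and 321 lower (2.01%). DESeq2 called 37 higher (0.246%) and 3 lower (0.02%), and limma voom 3 and 0. All 3 genes were called by both.

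The calls depended on which mice were in the fit. Without replicate 1, the mouse of the macrophage-rich library, 24 genes were higher (0.15% of 16030 tested) and 3 lower (0.0187%), and all 3 genes above were among them, with Saa3 at 2.42 ± 0.14, Cxcl5 at 1.17 ± 0.09 and Ereg at 1.55 ± 0.13. Without replicate 2 the calls were 2 higher, Saa3 and the haptoglobin gene Hp, and without replicate 3 or replicate 4 there were 0. Without the mouse as a block 0 genes passed. The sizes of the changes moved little in these fits. Saa3, Cxcl5 and Ereg were each refitted without replicate 2, 3 or 4, which gave 2.49, 2.25 and 2.28 for Saa3, 1.15, 1.17 and 1.18 for Cxcl5, and 1.80, 1.73 and 1.60 for Ereg, and without the block they were 2.28, 1.17 and 1.56. In mm10, with GENCODE M21 gene bounds counted from 1, the called genes are Saa3 (ENSMUSG00000040026, chr7:46711998-46715700, minus strand), Cxcl5 (ENSMUSG00000029371, chr5:90759360-90761624, plus strand) and Ereg (ENSMUSG00000029377, chr5:91074622-91093646, plus strand). Saa3 has close relatives in the same gene family, and how the authors assigned reads that match more than 1 of them was not stated in the sources used.

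**Figure D2:**
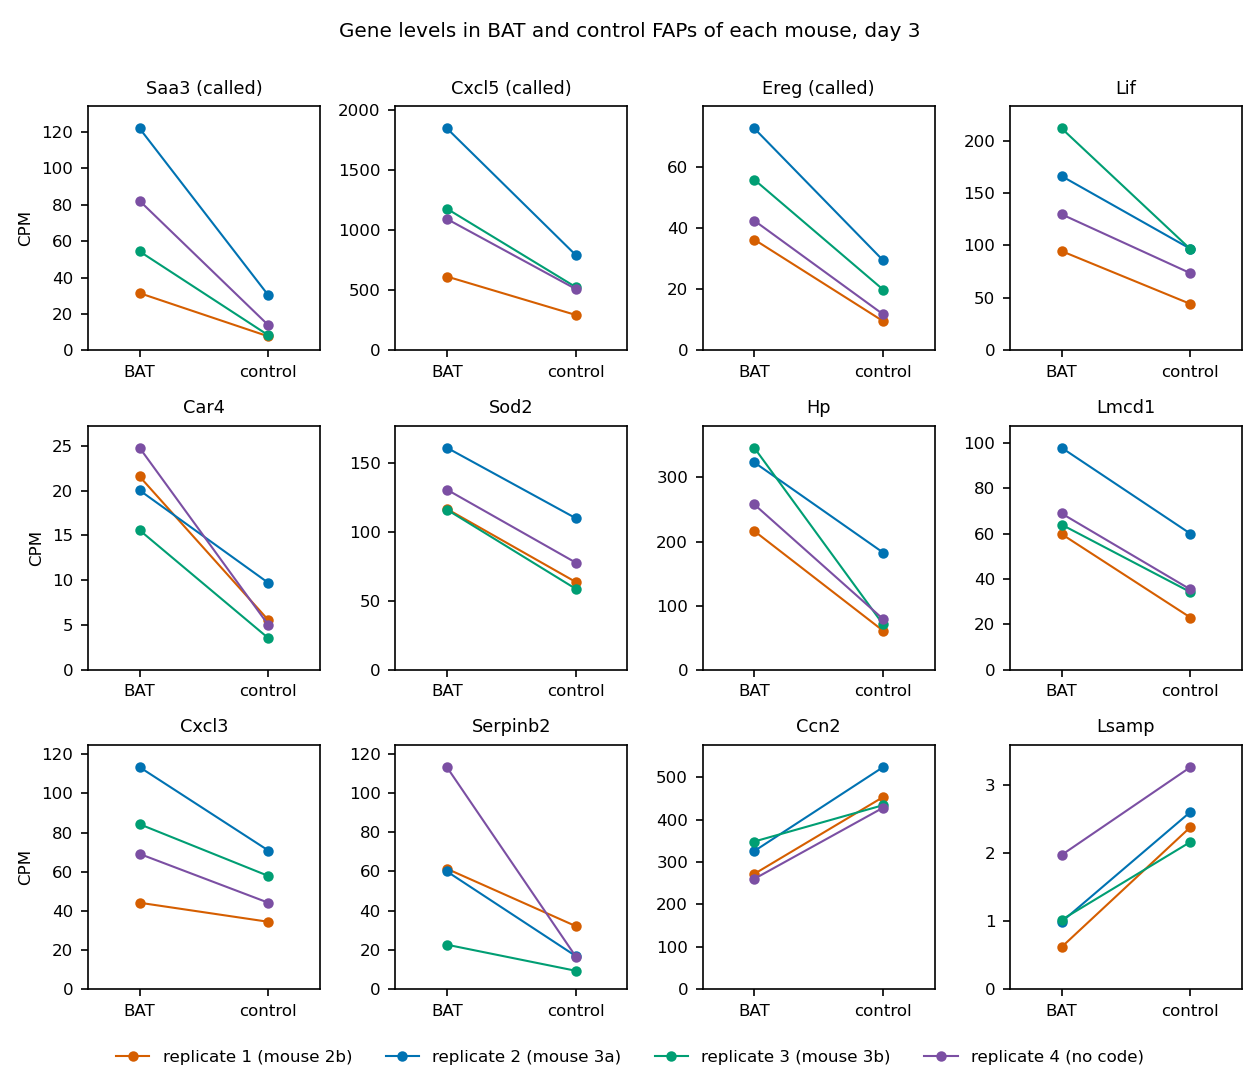
CPM of 12 genes in the BAT (left) and control (right) FAPs of each mouse at day 3, with a line for each mouse and axes that start at 0. The 10 genes higher with BAT with the smallest p and the first 2 named genes lower with BAT, Ccn2 and Lsamp, are shown. The BAT end of every line is the higher one in the first 10 panels and the lower one for Ccn2 and Lsamp, while only Saa3, Cxcl5 and Ereg passed the test.

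7 further genes make up the 10 with the smallest p in the upward direction, and none of these 7 passed. Lif, which encodes leukaemia inhibitory factor, was at 94.6, 166, 212 and 129.7 CPM in BAT replicates 1 to 4 and 44.3, 96.8, 96.5 and 73.6 CPM in control (0.99 ± 0.10, adjusted p = 0.0633). Every mouse was higher with BAT, and the groups overlapped by a single library, BAT replicate 1. Sod2, the manganese superoxide dismutase of mitochondria, was at 116, 161, 116 and 130.4 CPM with BAT and 63.6, 109.7, 58.6 and 77.6 CPM in control, with no overlap (0.82 ± 0.10, adjusted p = 0.152). Hp, haptoglobin, which binds free haemoglobin, was at 216, 323, 346 and 258 CPM with BAT and 60.9, 183, 70.8 and 79.2 CPM in control, again with no overlap, although the control of mouse 3a stood well above the other controls (1.69 ± 0.22, adjusted p = 0.153). Car4, a membrane-anchored carbonic anhydrase, averaged 20.5 ± 3.83 CPM with BAT and 5.94 ± 2.65 CPM in control (SD, n = 4 each), with no overlap (1.89 ± 0.23, adjusted p = 0.152). The others were Lmcd1, a LIM domain cofactor (1.01 ± 0.13), the chemokine gene Cxcl3 (0.59 ± 0.09), and Serpinb2, an inhibitor of plasminogen activators (1.73 ± 0.27, highest in BAT replicate 4). All 10 genes were higher with BAT in 4 of 4 mice, as were 5.21% of all genes tested. Their choice by p in these same mice favours such agreement, so it is no separate support. All 7 were called higher without replicate 1, where the adjusted p of Lif was 6.37e-04 and that of Sod2 0.00385.

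RefSeq promoters (GRCm38.p6) were looked up for these 10 genes, and 7 of them, all but Cxcl5, Ereg and Hp, have an entry. The 250 bases before the RefSeq start are shown for 4: Saa3 as the called gene, and Lif, Sod2 and Cxcl3 as a cytokine, an oxidative stress and a chemokine gene among the next 7. They lie at chr7:46715677-46715926, minus strand (Saa3), chr11:4257318-4257567, plus strand (Lif), chr17:13007589-13007838, plus strand (Sod2) and chr5:90785851-90786100, plus strand (Cxcl3), and each is written 5′ to 3′ towards its gene. Capitals mark matches on either strand to the kB motif of NF-kB (by its consensus), to the C/EBP core TTGCNNAA, bound by factors that drive acute-phase genes, and to the AP-1 motif TGANTCA.
Saa3: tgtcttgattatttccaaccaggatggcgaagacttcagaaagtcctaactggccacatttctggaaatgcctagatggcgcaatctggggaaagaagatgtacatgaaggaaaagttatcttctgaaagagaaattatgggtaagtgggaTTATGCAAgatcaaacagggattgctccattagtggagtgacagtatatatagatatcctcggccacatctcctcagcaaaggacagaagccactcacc
Lif: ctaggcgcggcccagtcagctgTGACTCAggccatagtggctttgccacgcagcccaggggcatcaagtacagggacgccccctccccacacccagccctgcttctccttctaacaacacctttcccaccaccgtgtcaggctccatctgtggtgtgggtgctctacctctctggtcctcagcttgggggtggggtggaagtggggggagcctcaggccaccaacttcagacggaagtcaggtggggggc
Sod2: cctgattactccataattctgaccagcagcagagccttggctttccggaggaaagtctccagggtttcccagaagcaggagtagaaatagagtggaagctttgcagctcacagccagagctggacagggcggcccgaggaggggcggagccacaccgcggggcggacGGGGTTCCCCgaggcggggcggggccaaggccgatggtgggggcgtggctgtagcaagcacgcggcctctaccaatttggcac
Cxcl3: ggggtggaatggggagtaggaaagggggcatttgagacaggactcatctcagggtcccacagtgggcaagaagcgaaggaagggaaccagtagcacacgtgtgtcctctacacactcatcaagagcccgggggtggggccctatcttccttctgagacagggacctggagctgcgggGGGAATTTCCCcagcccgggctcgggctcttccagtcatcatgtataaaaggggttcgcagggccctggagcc
The Saa3 stretch held a single C/EBP core, 99 to 92 bases before the start, the Lif stretch an AP-1 match at 228 to 222 bases, and the Sod2 stretch a kB match at 83 to 74 bases. Of the other 3 genes with an entry, Lmcd1 held none of these motifs, Car4 held a kB match, and Serpinb2, which has 2 listed starts, a C/EBP core and an AP-1 match before each. In Cxcl3 the capitals cover 2 overlapping kB matches, from 73 to 63 bases before the start. Among all 32851 promoters of the table, 3.9% held a kB match, 9.56% a C/EBP core and 6.75% an AP-1 match in the same 250 bases. These matches describe the letters only, and binding was not measured.

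In the downward direction no gene passed. The smallest p belonged to Ccn2, a matricellular protein induced by TGF-beta and by mechanical load. It was at 272, 326, 349 and 260.4 CPM in BAT replicates 1 to 4 and 454, 524, 434 and 428 CPM in control replicates 1 to 4. All 4 BAT libraries lay below all 4 controls (-0.58 ± 0.10, adjusted p = 0.462), and without replicate 1 it was called lower (-0.56 ± 0.10, adjusted p = 0.0375). Rasl11b, a small GTPase of the Ras family, averaged 14.3 ± 1.51 CPM with BAT and 21.1 ± 1.43 CPM in control (SD, n = 4 each), also with no overlap (-0.54 ± 0.12). Lsamp, a cell adhesion molecule, was low in both groups (1.15 ± 0.577 CPM with BAT and 2.60 ± 0.475 CPM in control, -1.23 ± 0.27, also with no overlap). The others named here were the actin-binding Ablim1 (-0.38 ± 0.09), the immediate-early gene Ier2 (-0.36 ± 0.09), the mesenchymal homeobox gene Meox2 (-0.37 ± 0.09), the calcification inhibitor Mgp (-0.43 ± 0.10), the BMP target Id1 (-0.41 ± 0.10) and the mitochondrial calcium-binding Efhd1 (-0.85 ± 0.21). These 9 genes were lower with BAT in 4 of 4 mice, as were 9.63% of all genes tested. They too were chosen by p in these same mice, which favours such agreement.

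Outside the markers of other cell types, the acute-phase and the cytokine list had the largest medians of the lists examined with all 4 mice. The lists and their members were chosen with earlier results of these data known. That choice may have favoured this ranking, and the shares of list genes set beside those of all genes. Neither is separate support. Over all genes tested the median log2 fold change was -0.01, and 46.8% of genes were fitted above 0. Of all genes tested, 5.21% were higher and 9.63% lower with BAT in 4 of 4 mice. At an unadjusted p under 0.05, 2.56% were higher and 2.01% lower. In the list of cytokines, chemokines and NF-kB targets, 27 of 37 tested genes were fitted above 0, the median was 0.33, and 17 were higher with BAT in 4 of 4 mice and 0 lower in all 4. Cxcl5 was its single called gene, and 13 had an unadjusted p under 0.05, all of them higher. DESeq2 called 6 higher, against 0.246% of all genes it tested. Il6, the cytokine interleukin 6, was at 278, 782, 462 and 490.0 CPM with BAT and 161, 451, 383 and 261 CPM in control (0.72 ± 0.12, adjusted p = 0.462), higher in every mouse. Ptgs2, the inducible cyclooxygenase of prostaglandin synthesis, was at 327, 798, 509.7 and 440.4 CPM with BAT and 229, 497, 401 and 312 CPM in control (0.54 ± 0.09, adjusted p = 0.431). Neither passed with 4 mice, and each was called without replicate 1 (Il6 0.67 ± 0.12, Ptgs2 0.52 ± 0.09). Without that replicate the list's median was 0.13, with 26 of 37 fitted above 0, so the size of the median, but not its sign, rested on the macrophage-rich library. Its rank was lost too. Cholesterol synthesis (0.27), oxidative stress defence (0.23), brown and beige adipocyte genes (0.22) and glycolysis and hypoxia (0.16) then had larger medians. Some genes of the cytokine list, among them Tnf and Il1a, are also made by macrophages, and their part in the median was not tested.

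**Figure D3:**
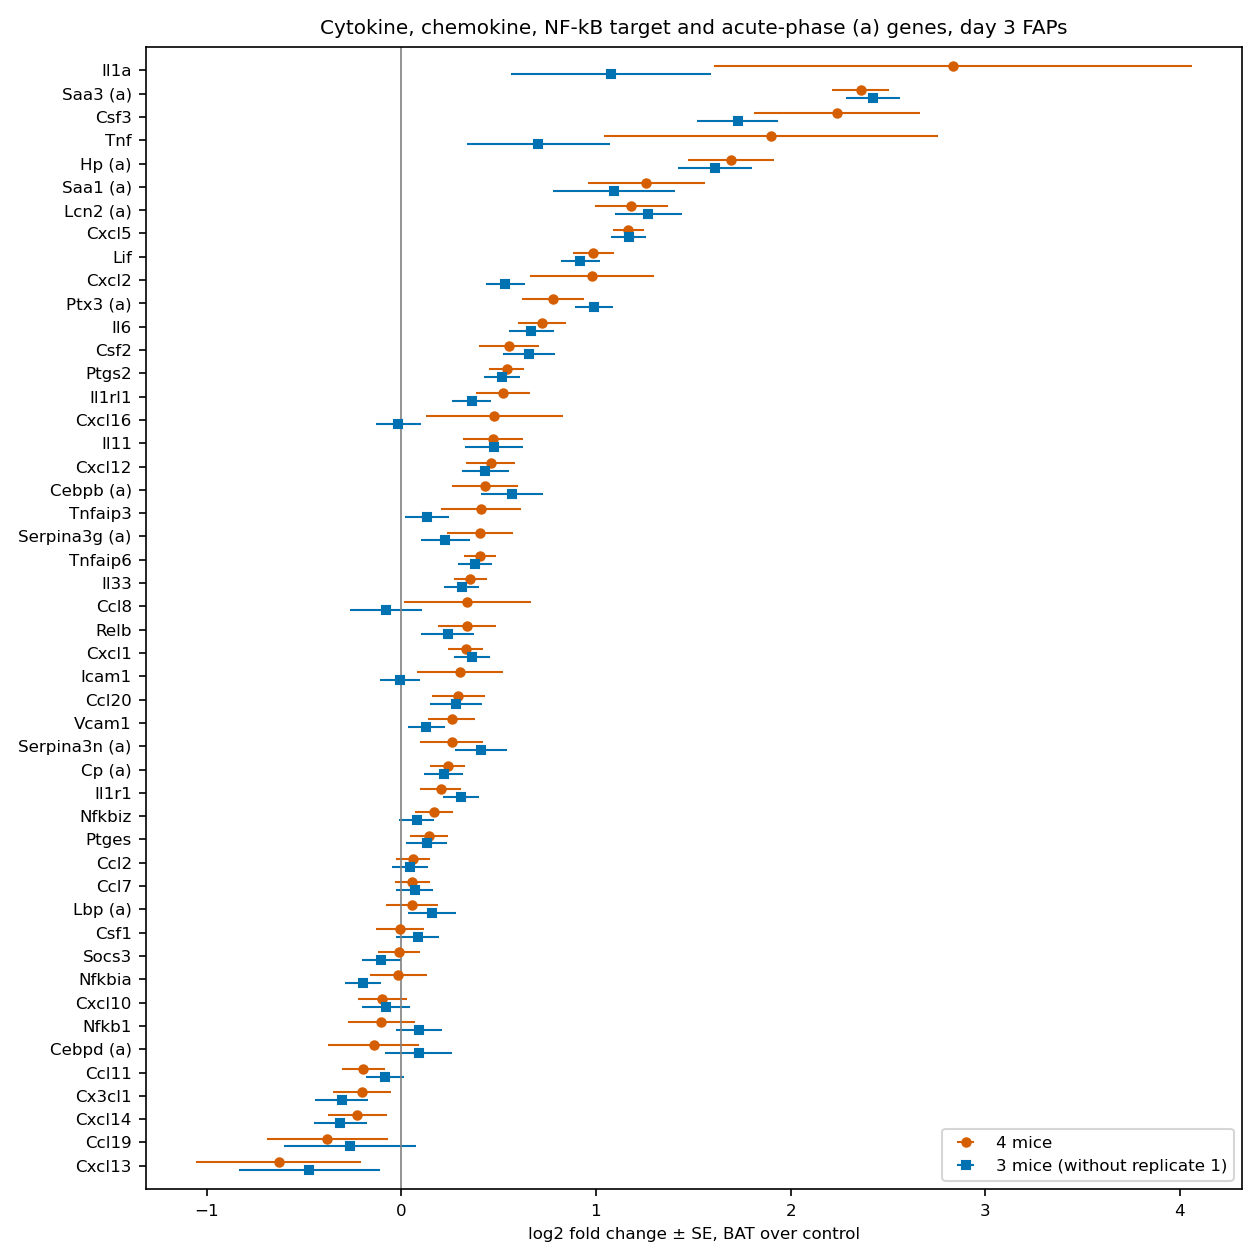
Log2 fold change ± SE of BAT over control in day 3 FAPs for each tested gene of the cytokine, chemokine and NF-kB target list and of the acute-phase list, marked (a), with all 4 mice (circles) and without replicate 1 (squares). Saa3, Cxcl5, Lif and Il6 lie at similar values in both fits, while the error bars of Il1a and Tnf shrink and their values drop without replicate 1.

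The acute-phase proteins, which liver and inflamed tissue secrete, had 10 of 11 tested genes fitted above 0 and a median of 0.43. 6 were higher with BAT in 4 of 4 mice, against 5.21% of all genes tested. 8 had an unadjusted p under 0.05, all of them higher, against 2.56% of all genes tested, and Saa3 was the called one. Lcn2, the iron-siderophore binding lipocalin 2, was at 6.65, 23.3, 12.4 and 15 CPM with BAT and 3.87, 8.03, 4.28 and 8.98 CPM in control, higher in each mouse and with overlapping groups (1.18 ± 0.19, adjusted p = 0.398). Ptx3, a soluble pattern recognition protein named here because it was called without replicate 1, was at 94.0, 257, 128 and 231 CPM with BAT and 91.1, 124, 73.7 and 108 CPM in control (0.78 ± 0.16, adjusted p = 0.783). Without replicate 1 it stood at 0.99 ± 0.10 (adjusted p = 2.18e-04). The list's median without that replicate was 0.57, with 4 genes called higher, against 0.15% of all genes tested in that fit. Complement genes of mesenchymal cells had a median of 0.14, with 10 of 13 fitted above 0 but the median above 0 in only 2 of 4 mice. Its first genes by p were the C1 inhibitor Serping1 (0.31 ± 0.10) and complement factor B, Cfb (0.44 ± 0.15), neither past the test. In the interferon response and antigen presentation list, 14 of 38 genes were fitted above 0, the median was -0.04, and 0 genes were higher with BAT in all mice. Among its members with the smallest p were Ifi35 (-0.29 ± 0.09), Oas1a (0.23 ± 0.15) and Ifit3 (-0.13 ± 0.09), none past the test.

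**Figure D4:**
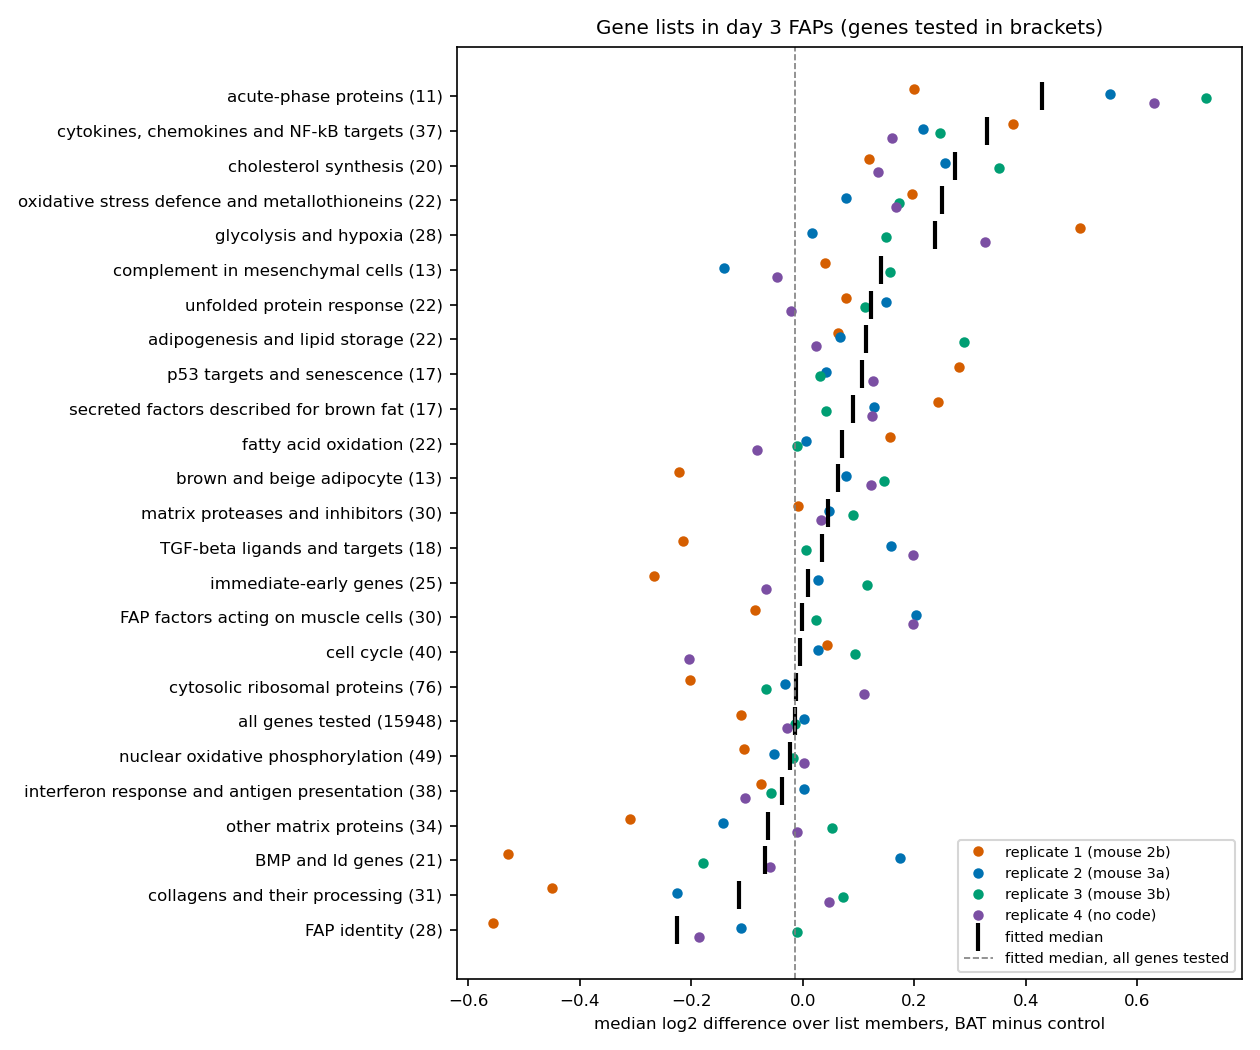
Median log2 difference, BAT minus control, over the tested members of 24 gene lists and over all genes tested, in day 3 FAPs. Dots are the medians within each mouse, black ticks the fitted medians, and the dashed line the fitted median of all genes, -0.01. Acute-phase and cytokine genes lie above the line in all 4 mice, and the FAP identity median is below 0 in all 4.

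Growth factors and other signals that FAPs send to muscle cells split. Of 30 genes in the list, 15 were fitted above 0 and the median was 0.00. But 8 were higher with BAT in 4 of 4 mice, against 5.21% of all genes tested. 10 had an unadjusted p under 0.05, all of them higher, against 2.56% of all genes tested. Ereg was the called gene, and DESeq2 called 5 higher, against 0.246% of all genes it tested. Fgf7, the keratinocyte growth factor, was at 156, 206, 232 and 156 CPM with BAT and 109, 128, 133 and 125 CPM in control, with every BAT library above every control (0.61 ± 0.10, adjusted p = 0.431). It was called without replicate 1 (0.61 ± 0.10, adjusted p = 0.0284). Rspo3, an enhancer of Wnt signalling, averaged 13.9 ± 0.408 CPM with BAT and 9.14 ± 2.08 CPM in control (SD, n = 4 each), also with no overlap (0.66 ± 0.15, adjusted p = 0.943). Among TGF-beta ligands and targets, Inhba, the subunit of activin A, was at 298, 906, 641 and 350.4 CPM with BAT and 167, 643, 430.4 and 280.3 CPM in control, higher in each mouse (0.59 ± 0.11, adjusted p = 0.662). Its antagonist follistatin, Fst, was at 0.38 ± 0.15. The list as a whole had a median of 0.03, and that of BMP and Id genes -0.07. Without replicate 1 these medians were 0.09 and 0.03, and that of the signals to muscle cells 0.13, with 20 of 30 above 0. Id1 of the BMP and Id list was lower in every mouse. Of these genes, Ereg passed edgeR's test.

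Most genes of cholesterol synthesis, of glycolysis and hypoxia, and of defence against oxidative stress were fitted above 0. However, 0 members of any of these 3 lists passed edgeR's test. For cholesterol synthesis the count was 19 of 20, with a median of 0.27, 9 genes higher in all 4 mice and 10 at an unadjusted p under 0.05. Of all genes tested, 5.21% were higher in all 4 mice, and 2.56% had such a p and were higher. DESeq2 called 2. Insig1, a sterol-regulated protein that restrains synthesis, was at 100.5, 121, 117 and 135 CPM with BAT and 80.1, 79.5, 90.4 and 102 CPM in control, higher in each mouse and with overlapping groups (0.46 ± 0.08, adjusted p = 0.605). The squalene epoxidase Sqle (0.50 ± 0.11) was higher in each mouse too. The median without replicate 1 was 0.27, with 20 of 20 above 0. For glycolysis and hypoxia the count was 27 of 28, with a median of 0.24, 10 genes higher in all 4 mice and 11 at an unadjusted p under 0.05, and DESeq2 called 1. Without replicate 1 its median was 0.16. Slc2a1, the glucose transporter GLUT1, was at 135, 224, 125 and 179 CPM with BAT and 64.1, 180.1, 99.4 and 87.8 CPM in control (0.71 ± 0.16, adjusted p = 0.943). The control of mouse 3a was again the highest control. Ndrg1 (0.37 ± 0.10), the glycolytic regulator Pfkfb3 (0.50 ± 0.17) and enolase, Eno1 (0.38 ± 0.13), were higher in each mouse. For oxidative stress defence and metallothioneins the count was 18 of 22, with a median of 0.25 and 9 genes at an unadjusted p under 0.05, all of them higher, and DESeq2 called 1. Besides Sod2, haem oxygenase Hmox1 (0.49 ± 0.12) and metallothionein Mt1 (0.33 ± 0.10) were higher in each mouse. The medians of the 3 lists were above 0 in 4 of 4 mice.

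The fitted medians of other metabolic lists, apart from that of the unfolded protein response, lay near the median of all genes. Nuclear genes of oxidative phosphorylation had a median of -0.02 (19 of 49 fitted above 0), mitochondrially encoded genes -0.01, fatty acid oxidation 0.07, cytosolic ribosomal proteins -0.01 and cell cycle genes -0.01. Mice differed in the mitochondrially encoded genes, with medians of -0.47, 0.34, -0.14 and 0.19 in replicates 1 to 4. The unfolded protein response list had a median of 0.12, with 18 of 22 fitted above 0 and Asns (0.22 ± 0.09), Chac1 (0.53 ± 0.22) and Atf4 (0.19 ± 0.09) as its first genes by p. Without replicate 1 the medians of the unfolded protein response and of fatty acid oxidation were 0.06 and -0.04, and that of mitochondrially encoded genes 0.09, while those of oxidative phosphorylation, ribosomal protein and cell cycle genes were -0.01, 0.01 and -0.02. No member of these 6 lists passed with edgeR or DESeq2.

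The signalling and stress lists had single genes that stood out, none past edgeR's test. In the p53 and senescence list (14 of 17 fitted above 0, median 0.11, 0.07 without replicate 1), Sesn2, a stress-induced inhibitor of mTORC1, was at 0.44 ± 0.15 with no overlap, and Phlda3, an inhibitor of Akt, at -0.46 ± 0.15. Among immediate-early genes (median 0.01, -0.01 without replicate 1), Ier3 was at 1347, 1181, 1460.3 and 1190.4 CPM with BAT and 912, 895, 1135 and 945 CPM in control, every BAT library above every control (0.45 ± 0.09, adjusted p = 0.776), while Ier2 and Jun (-0.31 ± 0.10) were lower in every mouse. In the Wnt list (median -0.02, 0.02 without replicate 1), the feedback inhibitor Nkd1 was lower with no overlap (-1.12 ± 0.31), opposite to Rspo3. The Notch and Hedgehog list had a median of -0.09, and of 0.04 without replicate 1; its first gene by p was the ligand gene Dll1, at 2.76, 0.915, 0.400 and 1.02 CPM with BAT and 0.112, 0.260, 0.309 and 0.227 CPM in control (2.25 ± 0.63, adjusted p = 0.957). The retinoid list had a median of 0.04, and of -0.06 without replicate 1, and among its first genes by p, besides Rbp4, was the retinal dehydrogenase Aldh1a1 (-0.25 ± 0.09).

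Most of the FAP identity genes were fitted on the lower side. Of 28 FAP identity genes, 4 were fitted above 0, the median was -0.23, 9 were lower with BAT in 4 of 4 mice and 1 was higher in all 4. 9 had an unadjusted p under 0.05, all of them lower, and neither edgeR nor DESeq2 called any. Of all genes tested, 9.63% were lower and 5.21% higher in 4 of 4 mice, and 2.01% had such a p and were lower. Dpt, the matrix protein dermatopontin, was at 462, 585, 623 and 598 CPM with BAT and 715, 669, 713 and 648 CPM in control, all BAT libraries below all controls (-0.25 ± 0.10, adjusted p = 0.957). Igfbp6, a binding protein of insulin-like growth factor 2, was at 199, 146, 174 and 214 CPM with BAT and 314, 199, 208 and 241 CPM in control (-0.35 ± 0.10), and the microfibril gene Mfap5 (-0.30 ± 0.09), the complement regulator Cd55 (-0.44 ± 0.13) and Ly6c1 (-0.28 ± 0.09) were lower in each mouse as well. The shift was largest in the mouse of the macrophage-rich library, where the list's median was -0.56, against -0.01 to -0.19 in the other 3 mice. Without replicate 1 the fitted median was -0.16, with 9 of 28 above 0. Whether the RNA of other cells in that library accounts for it was not tested.

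Collagens and their processing enzymes had 9 of 31 genes fitted above 0 and a median of -0.12, above 0 in 2 of 4 mice. Without replicate 1 the median was 0.02, with 16 of 31 above 0, so that its sign rested on that mouse. Col14a1, a fibril-associated collagen, averaged 222 ± 15.8 CPM with BAT and 266 ± 19.7 CPM in control (SD, n = 4 each), with no overlap (-0.23 ± 0.08, adjusted p = 0.957). Col18a1 (-0.37 ± 0.10) and Col6a1 (-0.23 ± 0.09) were lower in every mouse, while P4ha2, a collagen prolyl hydroxylase, was higher in every mouse (0.26 ± 0.10). Other matrix proteins had a median of -0.06 (9 of 34 above 0), and of -0.04 without replicate 1 (16 above 0), with Ccn2 lowest and thrombospondin 1, Thbs1, on the opposite side (0.42 ± 0.13). Among matrix proteases and their inhibitors, with a median of 0.05, the inhibitor Timp1 was at 0.39 ± 0.09, the urokinase Plau at 0.42 ± 0.12 and the stromelysin Mmp3 at 0.53 ± 0.17. None of these matrix genes passed edgeR's test with 4 mice. DESeq2 called 1 gene of the 3 matrix lists lower, and 0.02% of all genes it tested.

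No fat cell gene passed edgeR's test in the FAPs. The adipogenesis and lipid storage list had 22 of 30 genes tested, 13 fitted above 0 and a median of 0.11. 5 had an unadjusted p under 0.05, all higher, while 2.56% of all genes tested had such a p and were higher. Of the list edgeR called 0 and DESeq2 1, while DESeq2 called 0.246% of all genes it tested higher. The list summed to 4236 CPM in BAT replicate 1, the macrophage-rich library, and to 933, 1004 and 939 CPM in BAT replicates 2 to 4. Control replicates 1 to 4 held 824, 846, 788 and 919 CPM. Which genes carry the high sum was not tested. Without replicate 1 the list's median was 0.06. Fabp4, the fatty acid binding protein of fat cells, macrophages and endothelium, was at 32.8, 25.5, 23.4 and 15.8 CPM with BAT and 7.99, 20.9, 10.7 and 9.81 CPM in control, higher in each mouse (1.05 ± 0.28, adjusted p = 0.957). The lipoprotein lipase Lpl was at 0.27 ± 0.10 and Klf5 at 0.46 ± 0.14. Of the brown and beige adipocyte list, 13 of 24 genes could be tested, with a median of 0.06 (0.22 without replicate 1). Prdm16, a determinant of brown fat fate, was lower with BAT in each mouse (6.22, 3.95, 6.51 and 4.49 CPM with BAT, 11.2, 4.46, 7.98 and 7.35 CPM in control, -0.48 ± 0.17, adjusted p = 0.957). The factors described as secreted by brown fat had a median of 0.09 (0.06 without replicate 1), with Il6, the retinol carrier Rbp4 (0.44 ± 0.13) and Pm20d1 (1.09 ± 0.41) first by p.

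Markers of other mesenchymal and neural cells that the gate could hold were present in every library at similar sums. The summed level of pericyte and smooth muscle genes was 619, 738, 770.2 and 521 CPM in BAT replicates 1 to 4 and 612, 768, 741 and 454 CPM in control replicates 1 to 4, that of Schwann and glial genes 455, 448, 425 and 388 CPM with BAT and 459, 409.8, 368 and 422 CPM in control, and that of tenocyte genes 2828, 3166, 3372 and 3231 CPM with BAT and 3461, 3242, 3938 and 3061 CPM in control. The groups overlapped in each. Endothelial genes summed to 47.6, 15.3, 18.8 and 23.0 CPM with BAT and 26.5, 18.4, 15.7 and 23.3 CPM in control, the highest in BAT replicate 1.

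The BAT effect in FAPs was next compared with that at day 7, in 8 FAP libraries of 4 other mice. 0 of 17284 genes (0%) differed in their BAT effect between the days, with 579 at an unadjusted p under 0.05, and DESeq2 called 1. In simulated data with no outlying library this comparison recovered 60% of 2-fold differences. In the fit of both days Saa3 had a log2 fold change of 2.35 ± 0.29 at day 3 and 0.20 ± 0.28 at day 7, and the difference, day 3 minus day 7, was 2.16 ± 0.40 (unadjusted p = 0.000219, which did not pass). At day 7 it was at 33.1, 39.8, 4048 and 31.9 CPM in BAT replicates 1 to 4 and at 44.2, 64.6, 1494 and 24.8 CPM in control replicates 1 to 4. The mouse of replicate 3 was thus far above the other 3 mice in both muscles. That mouse also goes against its label: the female transcript Xist was at 163 to 178 CPM and the Y-linked Ddx3y at 0 in its 2 FAP libraries, against at most 0.129 and at least 49.1 CPM in the other 6. Without it Saa3 was at -0.23 ± 0.21 at day 7, the difference between days was 2.59 ± 0.28, and Saa3 was the single gene called (adjusted p = 0.0427). That mouse stands out by the same Saa3 values that this fit tests, and leaving out day 7 replicates was added after seeing the data. The call is therefore no separate support. Saa3 was not called when day 7 replicate 1, 2 or 4 was left out instead, nor with all mice by DESeq2 (Wald test, adjusted p = 0.132). Day cannot be told apart from the deposited table or from any batch that goes with it.

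Among the other genes with the smallest p for this difference, none of which passed, Lif was, in the fit of both days, at 0.98 ± 0.11 at day 3 and 0.29 ± 0.11 at day 7. Ndrg1 was at 0.36 ± 0.10 and -0.19 ± 0.10, and the gap junction gene Gja1 at 0.24 ± 0.09 and -0.24 ± 0.09. In the opposite direction Ccn2 was at -0.59 ± 0.10 at day 3 and 0.07 ± 0.10 at day 7, Rasl11b at -0.54 ± 0.11 and 0.21 ± 0.10, and Snai1, a repressor of epithelial genes, at -0.23 ± 0.14 and 0.63 ± 0.14. Ereg was at 1.00 ± 0.38, Hp at 0.87 ± 0.41 and Car4 at 1.19 ± 0.54 at day 7, each on the same side as at day 3. The list medians at day 7 were 0.20 for cytokines, 0.20 for acute-phase proteins, 0.18 for cholesterol synthesis, 0.05 for glycolysis and hypoxia, 0.01 for oxidative stress defence and -0.14 for FAP identity genes, against 0.00 over all genes tested.

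Satellite cells of the same 4 mice at day 3 are numbered separately in the labels, replicates 1 to 4 being mice 3a, 3b, the pair with no code and 2b. In them the BAT effects had wide errors for the genes led by Saa3. Saa3 was at 2.76 ± 0.84 there, Cxcl5 at 2.56 ± 1.56, Ereg at 1.55 ± 0.84 and Lif at 1.1 ± 0.57, and none of these 4 differed between the cell types past the test. Saa3 was at 0.652, 1.61, 0.657 and 3.61 CPM in satellite cells with BAT, replicates 1 to 4, and at 0.0758, 0.0216, 0.951 and 0.0457 CPM in control. Beside these values, the FAP marker Pdgfra was at 0.383, 7.63, 0.101 and 19.1 CPM in the same BAT libraries and 0.871, 0.668, 13.9 and 0.228 CPM in the same controls. Cxcl5 was at 6.63, 60.3, 2.93 and 58.9 CPM with BAT and 4.36, 2.09, 15.8 and 0.228 CPM in control. The 3 satellite cell libraries highest in Pdgfra were the 3 highest in Cxcl5, and whether FAP RNA in those libraries accounts for this was not tested. In the fit of both cell types Sod2 was at 0.85 ± 0.09 in FAPs and -0.01 ± 0.09 in satellite cells (difference 0.86 ± 0.13), and Insig1 at 0.48 ± 0.08 in FAPs and -0.03 ± 0.08 in satellite cells (difference 0.51 ± 0.11), neither past the test. In simulated data with no outlying library this comparison recovered 26% of 2-fold differences, so a missed threshold says little here.

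4 genes differed in their BAT effect between FAPs and satellite cells (0.0229% of 17445 tested), all higher in FAPs, and each had its highest FAP level in the macrophage-rich library. The first was Chrnd, a subunit of the muscle acetylcholine receptor, at 10.2, 0, 0 and 0 CPM in BAT replicates 1 to 4 and 0 CPM in the 4 control FAP libraries. Mgl2, a lectin of macrophages, was at 5.85, 0, 0.0727 and 0 CPM with BAT and 0 in control, and Nup210, a nuclear pore protein, at 2.36, 0.366, 0.0364 and 0.0615 CPM with BAT and 0 in control. Alox5, the leukotriene-forming lipoxygenase of leukocytes, was at 2.76, 0, 0 and 0.0923 CPM with BAT and 0.0372, 0, 0 and 0 CPM in control. The fitted differences of 5.74 to 9.26 on the log2 scale depend on the prior count and are not fold changes of a detected level. Without replicate 1 of the FAPs 0 genes passed, and the differences were 5.27 for Nup210, 3.03 for Alox5, 2.73 for Mgl2 and -0.11 for Chrnd. With all mice DESeq2 called Nup210 and Alox5 but not Chrnd or Mgl2 (adjusted p = 1.000 for both). Of the satellite cell libraries, BAT replicate 4 (also of mouse 2b) and control replicate 3 were rich in macrophage transcripts, with sums of 2390 and 2119 CPM, against 20.9 to 227 CPM in the other 6. Leaving out satellite cell replicates 1, 2, 3 and 4 in turn gave 0, 1, 8 and 1 genes higher, and without replicate 3 also 11 lower.

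**Figure D5:**
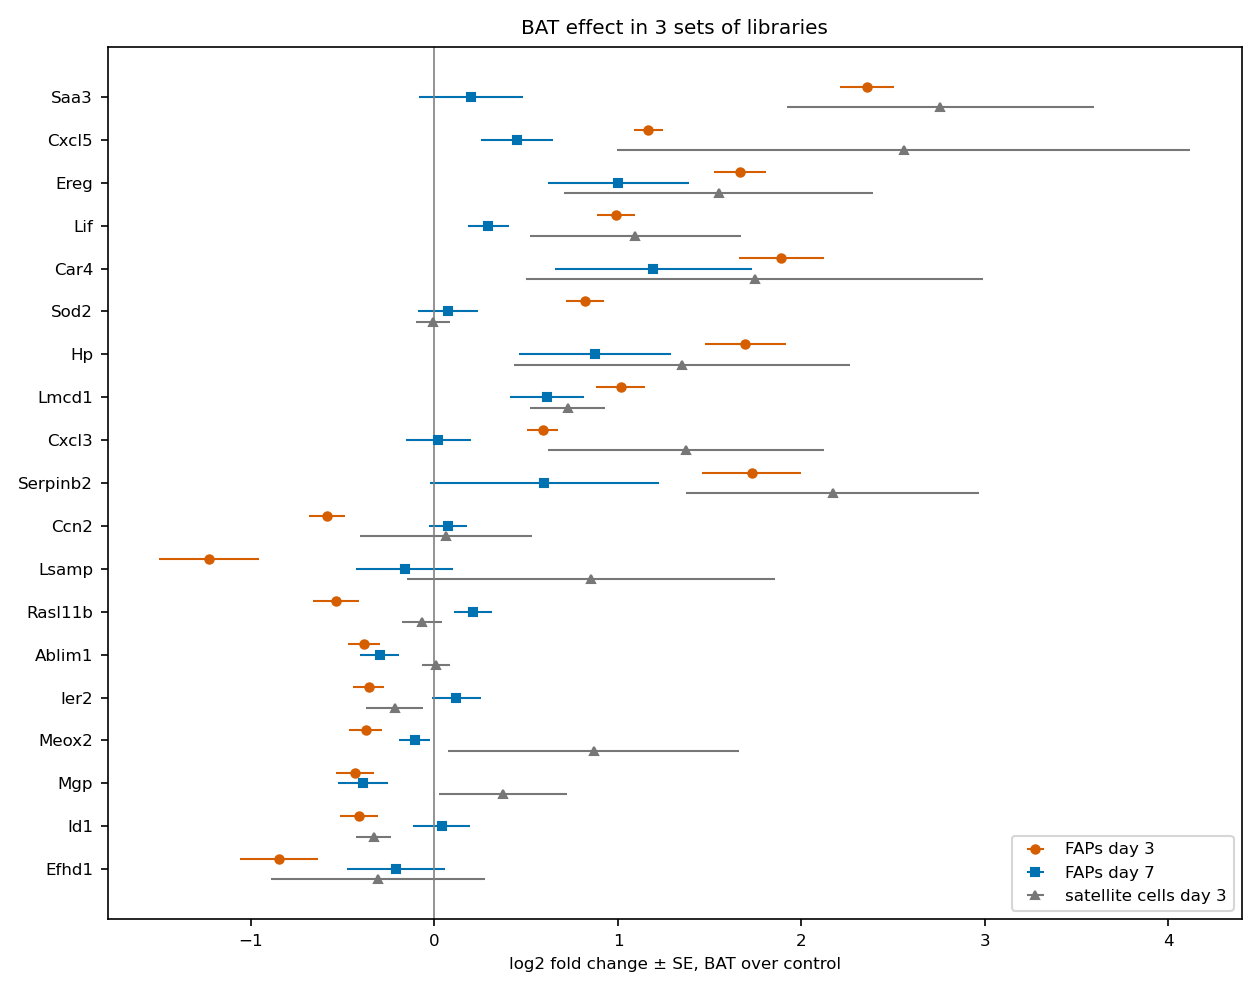
Log2 fold change ± SE of BAT over control for the 10 genes higher with BAT and 9 of the genes lower with BAT that had the smallest p in day 3 FAPs (circles), beside the same genes in day 7 FAPs (squares) and day 3 satellite cells (triangles). Saa3 is at 2.36 in day 3 FAPs and 0.20 in day 7 FAPs, Sod2 is at 0.82 in day 3 FAPs and -0.01 in day 3 satellite cells, and the satellite cell bars of Saa3 and Cxcl5 are wide.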

How the data were processed

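Per the labels' protocols, cDNA was made from sorted cells with a kit for little input RNA. The authors deposited expected counts per gene, 1 table per day, not normalised. 71.3% of the values above 0 in the day 3 table are whole numbers (tolerance 0). DRAGEN and mm10 are named, per the submitters' processing notes; their versions, the annotation and whether strand was used were not stated there. Of 55774 entries per table, 287 repeats with identical values were removed, leaving 55487 genes, of which 55141 are in GENCODE M21. Overlapping genes on opposite strands and near-identical genes (globins, Saa genes) are uncertain.

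Expected counts were rounded (totals moved by at most 0.00034%), filtered with filterByExpr (minimum count 10, minimum total 15), scaled by TMM (factors 0.963 to 1.057) and tested with edgeR 4.0.16 (R 4.3.3), quasi-likelihood, with the mouse as a block (3 residual degrees of freedom) and Benjamini-Hochberg adjustment over all genes tested, called under 0.05. The BAT effects of 2 sets of libraries were compared as an interaction, with the mouse within a set as the block. SE is the absolute log2 change over the square root of F. Changes within a mouse are log2 of CPM with 0.5 added. DESeq2 1.42.0 and limma 3.58.1 were alternatives, as were no filter, other scaling, no block, all 16 FAP libraries and leaving out each replicate; leaving out day 7 or satellite cell replicates was added after seeing the data. In simulated data of the main comparison, on 15638 genes, the 2-fold changes were recovered at 87% and the 4-fold changes at 100%. Of the calls, 7.88% were false. For the day and the cell type comparison 2-fold differences were recovered at 60% and 26%. Changes were simulated only in genes above a minimum level, and no simulated library stood apart as BAT replicate 1 did. These rates need not hold in the real libraries, where Car4 (1.89), Hp (1.69) and Serpinb2 (1.73) did not pass.

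The pairing comes from the labels, which say that paired samples share a mouse. Within pairs, the departures from the group means correlated by 0.175 on average (range -0.042 to 0.328), and 3 of 4 libraries correlated best with their own partner. Libraries of the same group differed by more than counting noise (the lowest ratio of chi-square to degrees of freedom was 17.1).

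Named genes are, in each direction, the called genes or, where under 10 were called, the 10 with the smallest p at a mean of at least 1 CPM (predicted genes left out), then the 3 or 4 with the smallest p in each of 40 lists, the 5 in each direction of each interaction, and fixed markers; 4 genes that this rule names are not reported here. Members and lists were chosen with earlier results of these data known.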

Additional observations from a re-analysis of the deposited data

Results flagged for a closer look

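1 library, BAT replicate 1 of mouse 2b, stood apart from the other 3 BAT libraries in the summed level of 7 lists. The macrophage and monocyte sum was 5946 CPM (others 22.1 to 133 CPM), the dendritic sum 867 CPM (11.7 to 20.03 CPM), the neutrophil sum 77.6 CPM (5.94 to 8.54 CPM) and the mast cell sum 12.1 CPM (0.677 to 1.098 CPM). Its mature myofibre sum was 170 CPM (12.1 to 16.95 CPM), its erythroid sum 409 CPM (2.74 to 32.6 CPM) and its adipogenesis and lipid storage sum 4236 CPM (933 to 1004 CPM). Among controls, the cholesterol synthesis sum of replicate 4 was 1485 CPM (others 994 to 1077 CPM), the erythroid sum of replicate 3 was 11.6 CPM (others 4.51 to 5.58 CPM), and the Hp level of replicate 2 was 183 CPM (others 60.9 to 79.2 CPM). In each of these 10 groups of 4 the gap to the nearest library, over the whole range, passed Dixon's 95% limit of 0.829. 120 groups were examined, and chance flags about 1 in 20.

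The BAT effect differed by a test between FAPs and satellite cells at day 3 for Chrnd (9.26 on the log2 scale), Mgl2 (8.64), Nup210 (7.49) and Alox5 (5.74). Chrnd, Mgl2 and Alox5 were at or near 0 in all FAP libraries except BAT replicate 1, while Nup210 was above the floor in BAT replicate 2 too. Without the mouse of BAT replicate 1 none of the 4 genes passed (differences -0.11, 2.73, 5.27 and 3.03, in the order above).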

How the results depend on the processing

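The 20 genes with the smallest p in the main comparison kept their direction in every alternative run for it. Of all 155 named genes tested there, 13 turned their sign in at least 1 alternative, 9 of them without replicate 1. The difference between cell types for Chrnd (9.26) ranged from -0.11, without replicate 1, to 9.69 over left-out replicates. For BAT against control in day 3 FAPs, with 3 genes higher and 0 lower, the counts were 3 and 0 with DESeq2's size factors, 60 and 3 without the filter on low counts, 37 and 3 with DESeq2, and 2 and 0 (Saa3 and Lif) with all 16 FAP libraries. Without the replicate block they were 0 and 0, also when BAT replicate 1 was left out. Leaving out each replicate gave 0 to 24 higher and 0 to 3 lower. For the day difference (0 and 0) the counts were 82 and 18 without the filter, 1 and 0 with DESeq2, 0 and 0 without the replicate block, 0 in each direction leaving out each day 3 replicate, and 0 to 1 higher leaving out each day 7 replicate. For the cell type difference (4 and 0) they were 15 and 0 without the filter, 8 and 4 with DESeq2, 0 without the replicate block, 0 to 16 higher leaving out each FAP replicate, and 0 to 8 higher and 0 to 11 lower leaving out each satellite cell replicate. Without the filter more low genes enter the fit; the cause of the other shifts was not tested. The macrophage difference of 1498 CPM ranged from 23.0 to 1996 CPM over left-out replicates, was 1525 CPM with TMM-adjusted levels and 831 CPM over 6 defining markers (above 0 in 2 of 4 pairs, p = 0.5, exact sign-flip permutation test). Of 220 values of those 20 genes under the alternatives, 177 stayed on their side of the threshold, 27 became called and 16 lost their call. Of 164 list medians with a replicate left out, 13 moved by more than the spread between mice. Changes below 2-fold were not simulated, and how often they would be detected is not known.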

Other observations

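Cxcl5 and Ereg, found higher in FAPs with BAT, lie in 1 stretch of chromosome 5 that also holds other chemokine and growth factor genes. This was noticed after the values were seen and is given as values alone. Of 20 annotated genes between Cxcl5 and Btc (mm10, chr5:90759360-91402994), 9 were tested. Of these, 7 were higher with BAT in 4 of 4 mice, as were 5.21% of all genes tested. The stretch was chosen around the called genes Cxcl5 and Ereg and also holds Cxcl3, named above by its p. That choice favours the count, which is no separate support. In order along the chromosome they were Cxcl5 (1.17 ± 0.08), the platelet factor gene Pf4 (2.88 ± 1.58), Cxcl3 (0.59 ± 0.09), the neutrophil chemokine genes Cxcl1 (0.33 ± 0.09) and Cxcl2 (0.98 ± 0.32), Mthfd2l, an enzyme of folate metabolism (0.01 ± 0.31), Ereg (1.67 ± 0.14), amphiregulin Areg (1.06 ± 0.23) and betacellulin Btc (0.47 ± 0.31). Areg was at 11.5, 18.7, 13.7 and 6.77 CPM with BAT and 4.09, 14.3, 7.63 and 2.46 CPM in control. Mthfd2l and Btc were higher in 2 of 4 mice each. Pf4 was at 196, 1.72, 3.56 and 1.17 CPM with BAT and 0.0743, 1.71, 1.19 and 0.341 CPM in control, so that its fitted value rests on BAT replicate 1, and Cxcl2 was highest in that library as well (938, 514, 394 and 303 CPM with BAT, 188, 318, 255 and 254 CPM in control). Of the 9 genes, Cxcl5 and Ereg passed edgeR's test.

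Of the 27 genes called without replicate 1, 23 were also among the 40 that DESeq2 called with all 4 mice. Beside genes already named, they held Csf3, the granulocyte colony-stimulating factor (11.3, 27.2, 17.2 and 14.9 CPM with BAT, 0.669, 13.3, 3.57 and 3.64 CPM in control, 1.73 ± 0.21 without replicate 1), the inducible nitric oxide synthase Nos2 (2.28 ± 0.41), the decoy receptor Il13ra2 (1.65 ± 0.25) and thrombomodulin, Thbd (0.55 ± 0.10). Dusp1, a phosphatase of MAP kinases, was called lower without replicate 1 (-0.82 ± 0.13) and was at 847, 249.6, 299 and 516 CPM with BAT and 476, 525, 625 and 656 CPM in control, with BAT replicate 1 the highest of the 8.

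The day 7 mouse that carried Xist also had the highest FAP levels of Hp (86.7, 239, 6176 and 133 CPM in BAT replicates 1 to 4, 68.3, 343, 2989 and 20.7 CPM in control) and Ereg (26.6, 55.2, 429 and 40.8 CPM with BAT, 10.6, 86.0, 251 and 6.41 CPM in control), in both of its muscles, as it had of Saa3.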
